A study of Rattus norvegicus with 12 samples.

Results

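The core circadian clock genes Bmal1, Clock, Per1, Per2, Cry1 and Cry2 and the clock output gene Dbp were followed in the kidney of rat fetuses whose mothers were kept under a regular or a repeatedly reversed photoperiod. The genes were chosen by name. Each of the 7 was taken from the rows of the array table that carry its symbol alone, and each had 1 such transcript cluster (a set of probes summarized as 1 value), out of 14557 genes with a single symbol and 36685 clusters in all. The kidneys came from non-sexed Sprague-Dawley fetuses at 19 days of gestation. LD mothers stayed under a cycle of 12 h light and 12 h dark for the whole of gestation. CPS (chronic photoperiod shifting) mothers had their light and dark phases fully reversed every few days and were put back on the regular cycle shortly before collection. Each group had 6 arrays, and each array held RNA from a pool of fetal kidneys, which the labels describe as 6 fetuses of 1 mother. The study's methods speak of a pool from 6 mothers, and if each array mixed several mothers or the same ones, the spread between arrays would not be that between litters. Collection was at a single clock time, given as 8 h in the protocol and as 20 h in another field of the labels, so the values are levels at 1 phase and cannot show a rhythm. In pooled whole kidney, fewer cells of a type and less RNA per cell cannot be told apart.

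The mammalian clock is a loop of transcription and feedback. BMAL1 and CLOCK proteins bind as a pair to E-boxes in DNA and switch on the Per and Cry genes (the positive arm), and PER and CRY proteins return to the nucleus and block that pair (the negative arm). Dbp is switched on through the same E-boxes, and its protein binds D-boxes, which carries the rhythm to further genes, Per genes among them. In adult kidney this loop is known to time sodium and water transporters, while in the fetus the maternal day is thought to reach the tissue through maternal signals.

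Values were log2 values of Robust Multiarray Average (RMA), and arrays correlated with each other at 0.978 to 0.987. Of 18 listed kidney markers, 14 had a cluster of their own on the array, which alone does not show that they were expressed. The mean log2 value of Pax2, a transcription factor of the nephron, was 7.97 in LD (SD 0.16, n = 6) and 8.02 in CPS (SD 0.14, n = 6). Markers of other tissues were also measured. The mean over 10 measured adrenal cortex markers was 2.84 to 3.22 in LD and 2.97 to 3.65 in CPS (exact permutation p = 0.0325, two-sided), and 5 of the 10 passed an unadjusted p of 0.05, all higher in CPS. One of these was the steroid enzyme gene Cyp11b1, at 1.33 to 2.37 in LD and 1.81 to 3.36 in CPS (exact permutation p = 0.0238), while Cyp11b2 was at 1.53 to 3.03 and 1.33 to 2.15 (exact permutation p = 0.671). For comparison, 1245 olfactory and vomeronasal receptor genes, used as a reference for dim signal, lay at 1.72 in the median and at 2.66 in the 95th percentile. Of the other adrenal genes that passed, Cyp21a1 and Akr1b7 had LD means below that percentile (2.48 and 2.24), and Cyp11a1 and Mrap above it (4.11 and 3.81). For the counts of markers that passed, the share over all genes was 4.72%, and 2.94% as higher in CPS. The mean of 12 liver markers was 4.55 to 6.65 in LD and 5.06 to 7.14 in CPS (exact permutation p = 0.156). All 12 had a positive log2 fold change, and 2 passed an unadjusted p of 0.05. The mean of 9 muscle markers was 3.91 to 5.06 in LD and 4.03 to 6.74 in CPS (exact permutation p = 0.108). All 9 had a positive log2 fold change, and 1, Tnnc2, passed at 1.66. The means of the kidney, red blood cell and immune lists gave exact permutation p of 0.139, 0.379 and 0.961. Of the 14 kidney markers 12 had a positive log2 fold change. Of these, 1, Foxd1, passed an unadjusted p of 0.05 at 0.19 (exact permutation p = 0.00433, limma p adjusted over all clusters = 0.887). Of 7 red blood cell and 12 immune markers, 5 and 6 were positive and 0 passed. The part of muscle in the clock gene results was not tested. All 7 clock genes were above the 95th percentile of the dim reference on every array.

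Of the 7 clock genes, 0 were higher and 0 were lower in CPS at an unadjusted p under 0.05 in limma, the threshold that the study's methods state. By the same rule 5.3% of all clusters and 4.72% of the 14557 genes passed, so a count of 0 among 7 is near that background. LD and CPS values overlapped in all 7, and the count was also 0 with the liver and adrenal cortex means as covariates. After Benjamini-Hochberg adjustment over all clusters 0 clusters passed, with a lowest adjusted p of 0.887. Of the members 4 had a positive and 3 a negative log2 fold change, with a median of 0.03, beside a median of 0.0097 over all genes.

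**Figure D1:**
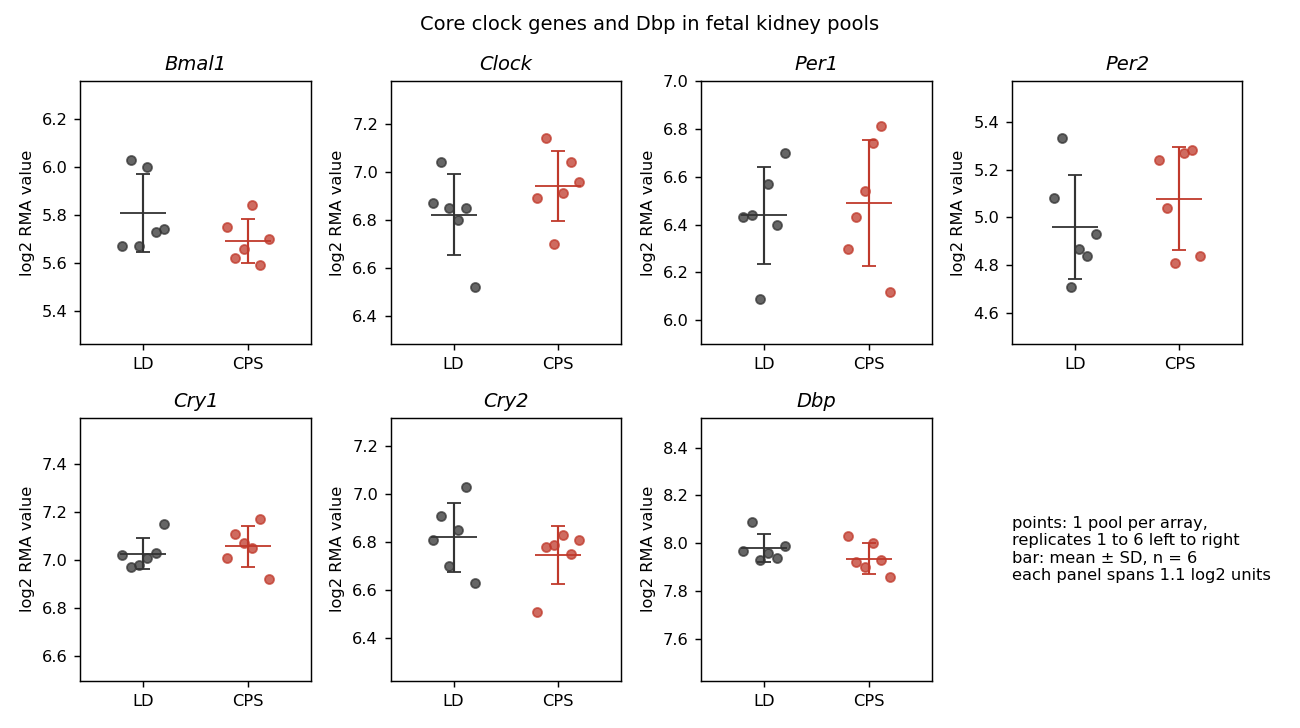
Log2 RMA value (vertical axis, 1.1 units in every panel) of each clock gene in the 6 LD and 6 CPS pools (points, replicates in order from left to right), with the mean and SD of each group. The groups overlap in every panel, Bmal1 reaches 6.00 or more in 2 LD pools and in no CPS pool, and Cry1 and Dbp have the narrowest ranges.

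In the positive arm, Bmal1, the partner without which the loop stops in mice, was lowest at 5.67, had a median of 5.74 and was highest at 6.03 in LD. In CPS its lowest value was 5.59, its median 5.68 and its highest 5.84. LD replicates 2 and 4 lay above every CPS pool, and the other 4 LD pools lay among the CPS pools. The difference, CPS minus LD, was -0.12 on the log2 scale (standard error 0.08, 95% interval -0.30 to 0.07, exact two-sided permutation p = 0.186). That interval leaves room for a level in CPS between 0.814 and 1.05 times that in LD. Clock, which encodes the DNA-binding partner of BMAL1, was 6.52 at the lowest, 6.85 at the median and 7.04 at the highest in LD. In CPS the lowest, median and highest values were 6.70, 6.94 and 7.14. LD replicate 6 was low and CPS replicate 2 was high, and the remaining pools overlapped. Its difference was 0.12 (standard error 0.10, 95% interval -0.09 to 0.33, exact permutation p = 0.229). The partners thus had estimates of opposite sign, neither of which exceeded the spread between pools.

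In the negative arm, Per2, the period gene whose product paces the loop, ranged in LD from 4.71 through a median of 4.90 to 5.33. In CPS it ranged from 4.81 through a median of 5.14 to 5.28. LD replicate 2 held the highest value of all 12 pools, while CPS replicates 1, 4 and 5 lay together between 5.24 and 5.28. The difference of 0.12 had a standard error of 0.12 and a 95% interval of -0.15 to 0.39 (exact permutation p = 0.346), that is, 0.903 to 1.31 times the LD level. Per1, the period gene that responds fastest to light and glucocorticoid signals in rodents, ranged in LD from 6.09 (replicate 3) through 6.44 to 6.70 (replicate 6). In CPS it ranged from 6.12 (replicate 6) through 6.48 to 6.81 (replicate 5), so each group held both high and low pools. Its difference was 0.05 (standard error 0.13, 95% interval -0.24 to 0.34, exact permutation p = 0.714). The estimate had the opposite sign without LD replicate 3 (-0.02) or without CPS replicate 5 (-0.02, both from limma).

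Cry1 encodes the stronger of the cryptochrome repressors. It kept to a narrow band, with 6.97, 7.02 and 7.15 as the lowest, median and highest LD values and 6.92, 7.06 and 7.17 in CPS. LD replicate 6 stood above the other 5 LD pools, which lay between 6.97 and 7.03. The difference of 0.03 (standard error 0.06, 95% interval -0.11 to 0.17, exact permutation p = 0.506) bounds CPS at 0.929 to 1.12 times LD. Cry2, the second cryptochrome, was 6.63, 6.83 and 7.03 in LD and 6.51, 6.78 and 6.83 in CPS in the same order. CPS replicate 1 was lowest of all pools and LD replicate 5 highest. Its difference was -0.07 (standard error 0.08, 95% interval -0.26 to 0.11, exact permutation p = 0.361).

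Dbp, the output factor, was 7.93, 7.96 and 8.09 in LD and 7.86, 7.92 and 8.03 in CPS as lowest, median and highest value. LD replicate 2 was highest and CPS replicate 6 lowest, and both groups filled most of the same 0.23 log2 units. The difference of -0.04 (standard error 0.06, 95% interval -0.17 to 0.08, exact permutation p = 0.240) bounds CPS at 0.889 to 1.06 times LD, the closest bounds of the 7 genes together with those of Cry1. Over the members, the widest bounds were 0.814 for Bmal1 on the lower side and 1.31 for Per2 on the upper.

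**Figure D2:**
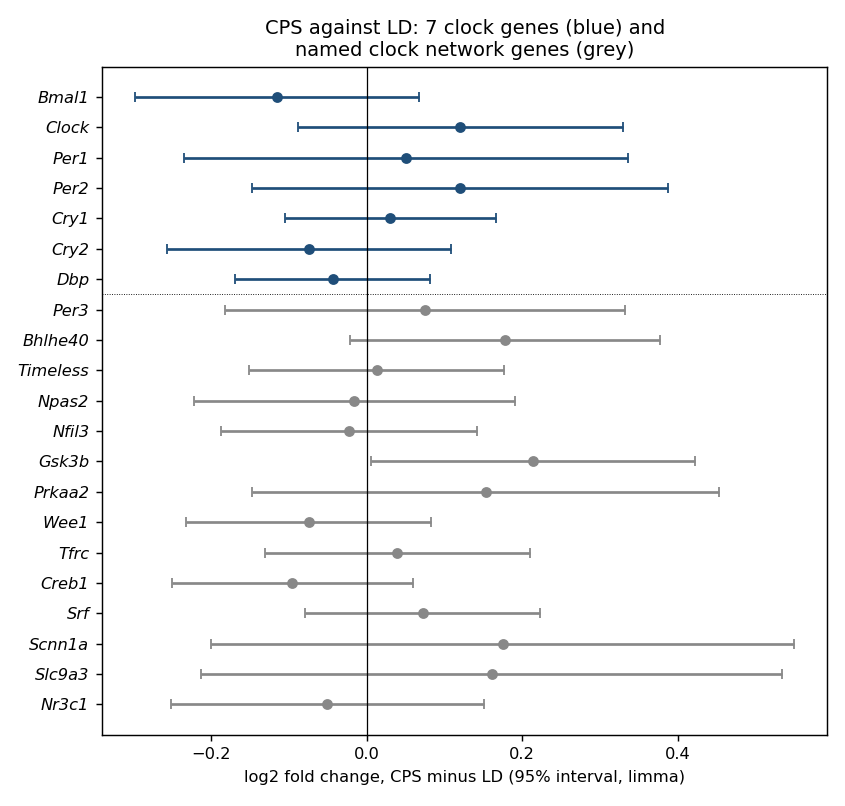
Log2 fold change, CPS minus LD, with its 95% interval from limma, for the 7 clock genes (blue) and the named genes of the clock network (grey). The interval crosses 0 for every gene drawn except Gsk3b, at 0.21 with an interval of 0.01 to 0.42.

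The wider clock network was read from 8 lists of 53 genes, of which 26 had a measured cluster of their own. Of the 26, 1 passed as higher, 0 as lower and 25 not at all, and their median log2 fold change was 0.009. Over all genes 2.94% passed as higher in CPS, so 1 of 26 is near that background. Among relatives of the positive arm, Npas2, which can stand in for CLOCK in mice, had a difference of -0.02 (exact permutation p = 0.868). Among 6 genes listed as further repressors, 3 were measured and 0 passed. Per3, the third period gene, had 0.07 (exact permutation p = 0.545), Timeless 0.01, and Bhlhe40, which encodes the E-box repressor DEC1, 0.18 (95% interval -0.02 to 0.38, exact permutation p = 0.0693). Bhlhe40 was lowest at 7.51 and highest at 7.90 in LD, against 7.71 and 8.07 in CPS, and CPS replicates 3, 4 and 5 stood highest. It passed an unadjusted p of 0.05 in limma without CPS replicate 1 (difference 0.22), with a trend of spread with intensity (0.18) and with array weights (0.20). Of the 3 D-box factors listed besides Dbp, only Nfil3, the repressor that competes with DBP for the same sites, was measured. Its difference was -0.02 (exact permutation p = 0.740). The REV-ERB and ROR receptors, which act on Bmal1, are 5 genes that are unnamed here and were not analysed.

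Among kinases and ubiquitin factors that act on clock proteins, 5 of 13 were measured and 1 passed. Gsk3b, a kinase that phosphorylates PER, CRY and other clock proteins, was 9.44 at the lowest, 9.60 at the median and 9.86 at the highest in LD. In CPS the lowest, median and highest values were 9.63, 9.87 and 10.07. Of the CPS pools 3 lay above every LD pool. The difference was 0.21 (standard error 0.10, limma p = 0.0444, adjusted p = 0.887, exact permutation p = 0.0476). The call was lost in 8 of 12 fits of limma that left out 1 array (LD replicate 1, 3, 5 or 6, or CPS replicate 1, 2, 4 or 5), in which the difference was 0.17 to 0.22. With the liver and adrenal cortex means as covariates, the difference of 0.20 did not pass in limma, nor did that of 0.25 with each array centred on its median. Prkaa2, which encodes a catalytic subunit of the energy sensor AMPK, had 0.15 (exact permutation p = 0.355), and the casein kinase gene Csnk2a1 had -0.05. Of the listed clock outputs 5 of 9 were measured and 0 passed, with Wee1, a mitotic kinase timed by the clock in mouse liver, at -0.07 and the transferrin receptor gene Tfrc at 0.04. Of the inputs 8 of 11 were measured and 0 passed, with Creb1, which carries light and hormone signals to Per1, at -0.10 and the serum response factor gene Srf at 0.07. Of 4 kidney genes that the study timed, 3 were measured. The sodium channel subunit gene Scnn1a had 0.17 (exact permutation p = 0.357), the sodium/hydrogen exchanger gene Slc9a3 0.16 (exact permutation p = 0.411) and the glucocorticoid receptor gene Nr3c1 -0.05 (exact permutation p = 0.580).

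How the members moved together was read from each pool's deviation from its group mean, over 12 pools, so that a difference between groups does not enter. Of the 21 pairs of members, 1 passed Benjamini-Hochberg adjustment over the pairs. Per2 and Dbp rose and fell together, with a Pearson r of 0.85 (permutation p = 0.00132, adjusted p = 0.0277) and a Spearman rho of 0.91 (permutation p = 0.00042, adjusted p = 0.00882). LD replicate 2 was the highest LD pool and LD replicate 3 the lowest in both genes. In CPS, replicates 1 and 4 were above their group mean in both genes and replicates 3 and 6 were the lowest in both. CPS replicate 5 did not follow, with the highest Per2 of CPS (deviation 0.20) and Dbp just below its group mean (-0.01). Within LD alone r was 0.91 (exact permutation p = 0.0181, adjusted p = 0.277 over 21 pairs), and within CPS it was 0.79 (exact permutation p = 0.0764, adjusted p = 0.802). The difference between the groups, -0.12, did not pass a permutation of group labels (exact p = 0.574). Without the 2 pools farthest from the median of Per2, r was 0.86 (permutation p adjusted over 21 pairs = 0.218). Among 9407 other genes at or above the median level, Dbp ranked at place 11 by r with Per2, and Per2 ranked at place 5 for Dbp.

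The adjusted call of this pair was lost in 7 of 12 fits that left out 1 pool, with r of 0.76 without LD replicate 2 (adjusted permutation p = 0.280) and 0.82 to 0.85 without LD replicate 3, 4 or 5 or CPS replicate 2, 3 or 6. The array median moved with both genes, with r of -0.75 for Per2 and -0.66 for Dbp, and the immune marker mean did so with r of 0.63 and 0.45. Given as covariates, added after the data had been seen, the array median left r at 0.71 (adjusted permutation p = 0.125) and the immune mean at 0.81 (adjusted permutation p = 0.0477). With the liver and adrenal cortex means as covariates r was 0.86 (adjusted permutation p = 0.0210).

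Promoter windows of the pair are shown because their genes moved together. They are RefSeq sequence of build GRCr8, from 250 bases before to 50 after the start of the gene, read 5′ to 3′ on the strand of the gene. Capitals mark the D-box TTATGTAA and the E′-box CACGTT in Per2, and the Dbp window holds none of the motifs searched. The windows are chr9:99496944-99497243 on the minus strand for Per2 and chr1:105312006-105312305 on the plus strand for Dbp.
Per2: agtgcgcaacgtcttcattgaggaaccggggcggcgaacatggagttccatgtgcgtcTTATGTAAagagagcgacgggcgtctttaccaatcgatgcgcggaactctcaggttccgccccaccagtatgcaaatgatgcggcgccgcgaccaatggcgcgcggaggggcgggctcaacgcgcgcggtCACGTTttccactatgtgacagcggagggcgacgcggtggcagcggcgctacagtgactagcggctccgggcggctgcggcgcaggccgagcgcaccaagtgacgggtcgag
Dbp: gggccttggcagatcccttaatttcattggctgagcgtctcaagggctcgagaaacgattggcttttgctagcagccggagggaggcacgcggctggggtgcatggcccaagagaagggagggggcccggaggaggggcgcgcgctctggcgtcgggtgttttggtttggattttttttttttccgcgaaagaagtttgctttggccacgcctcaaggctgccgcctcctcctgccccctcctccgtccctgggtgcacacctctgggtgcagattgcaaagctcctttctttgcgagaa

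Motifs were searched on both strands as the E-box CACGTG, the E′-box CACGTT, the D-box TTATGTAA or TTACGTAA, the ROR element TAGGTCA or TGGGTCA, and the cAMP response element TGACGTCA. Windows were found for 6 of the 7 members, with 2 for Clock and none matched for Cry1. Counted from the start of the gene, the Per2 D-box began at -192 and its E′-box at -62. Of 33469 windows of the same length, 1.01% held the D-box and 4.83% the E′-box. The Bmal1 window held a ROR element, TAGGTCA, at -16 (6.6% of windows), and the Cry2 window an E′-box on the other strand at -212. The windows of Per1, Clock and Dbp held none of these letters. These matches describe the sequence and are not bound sites.

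**Figure D3:**
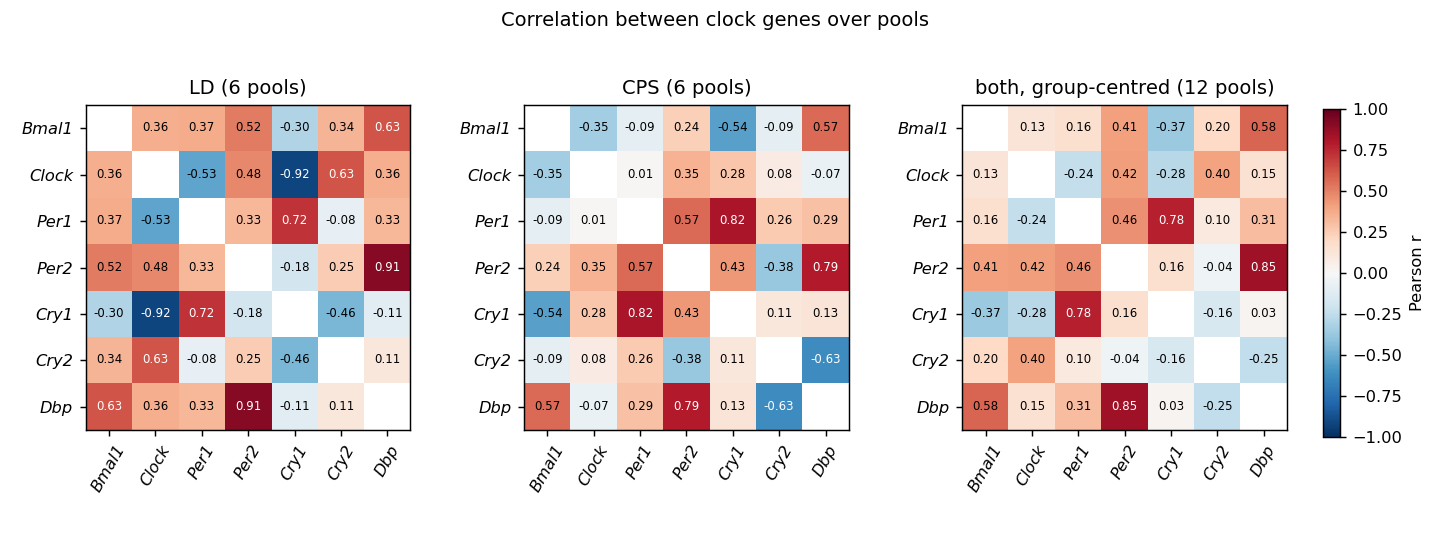
Pearson r between each pair of members over the 6 LD pools, the 6 CPS pools and all 12 pools after group means were removed (colour from -1, blue, to 1, red). The Per2 and Dbp square is 0.91, 0.79 and 0.85 in that order, while the squares that join Bmal1 or Clock to the period and cryptochrome genes carry both signs on the values as deposited.

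Within the negative arm, Per1 and Cry1 had the next highest value, with r of 0.78 (permutation p = 0.00747, adjusted p = 0.0784) and rho of 0.65 (permutation p = 0.0338, adjusted p = 0.355), so the pair did not pass adjustment. Both genes were highest in LD replicate 6 among LD pools and in CPS replicate 5 among CPS pools, and both were lowest of CPS in replicate 6. Without the 2 pools farthest from the median of Per1, r was 0.65. With each array centred on its median, which subtracts the same value from every gene of a pool, r was 0.93 (adjusted permutation p = 0.00115). The array median moved with Per1 at r of -0.69 and with Cry1 at -0.36, and the immune mean at 0.58 and 0.43. As covariates, the array median left r at 0.80 (adjusted permutation p = 0.125) and the immune mean at 0.73 (0.105). The liver and adrenal cortex means left it at 0.70 (0.140). After a further quantile normalization it was 0.71 (0.196). The other 5 pairs of this arm had r between -0.16 and 0.46, with Per1 and Per2 at 0.46 (adjusted permutation p = 0.622) and Cry1 and Cry2 at -0.16 (adjusted permutation p = 0.820), or 0.28 with each array centred on its median.

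Between the arms there was no common direction. Of 8 pairs of Bmal1 or Clock with a period or cryptochrome gene, 3 had a negative and 5 a positive r, and 0 passed adjustment. The values ran from -0.37 for Bmal1 and Cry1 to 0.42 for Clock and Per2. With each array centred on its median the 3 negative ones were positive (0.34 for Bmal1 and Cry1, 0.16 for Clock and Per1 and 0.23 for Clock and Cry1). In the same order, they stayed negative with the array median as covariate (-0.72, -0.55 and -0.39). They did so too with replicate number as a block (-0.50, -0.70 and -0.67). With the liver and adrenal cortex means as covariates they were -0.46, 0.01 and 0.10. None of these values passed adjustment. Bmal1 and Per2, known to peak at opposite times of day in many adult tissues, had r of 0.41 (rho 0.30, permutation p = 0.216, adjusted p = 0.622). That r was 0.10 without LD replicate 2, 0.20 without the 2 pools farthest from the median of Bmal1, 0.66 after median centring of the arrays and 0.00 with the array median as covariate. Bmal1 and Clock themselves had r of 0.13 and rho of -0.24 (permutation p = 0.743 and 0.486). Bmal1 and Dbp had r of 0.58 (permutation p = 0.0453, adjusted p = 0.317), and with each array centred on its median r was 0.80 (adjusted permutation p = 0.0049). Without LD replicate 2 it was 0.34 (adjusted permutation p = 0.768), and with the array median as covariate 0.35 (adjusted permutation p = 0.597).

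Clock and Cry1 had the most negative r of either group. In LD it was -0.92 (exact permutation p = 0.0264, adjusted p = 0.277), while rho was -0.71 (exact permutation p = 0.136). LD replicate 6 was lowest in Clock and highest in Cry1, and LD replicate 2 the reverse. Over both groups r was -0.28, and it was 0.14 without LD replicate 6. In CPS r was 0.28. The difference between the groups, 1.2, did not pass a permutation of group labels (exact p = 0.128, adjusted p = 0.856). For 0 of the 21 pairs did the difference between LD and CPS pass adjustment, and 0.856 was the lowest adjusted p.

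**Figure D4:**
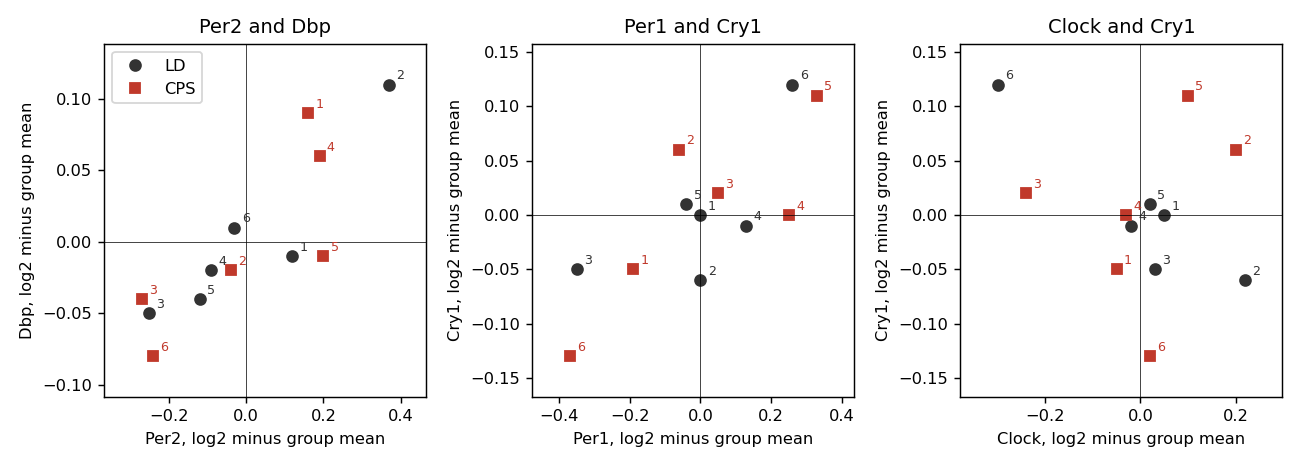
Deviation from the group mean (log2) of Dbp against Per2, Cry1 against Per1 and Cry1 against Clock in LD (black circles) and CPS (red squares), with the replicate number beside each point. Per2 and Dbp tend to rise together in both groups, except in CPS replicate 5, which is high in Per2 and just below the mean in Dbp. LD replicate 6, with Clock at 6.52 and Cry1 at 7.15, lies at the upper left of the last panel.

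The same reading was made for 4 relatives, Per3, Npas2, Nfil3 and Bhlhe40, against the 7 members. Of these 28 pairs 0 passed adjustment. Per2 and Nfil3 came closest, with r of 0.79 (permutation p = 0.00193, adjusted p = 0.0540), rho of 0.84 (adjusted permutation p = 0.0571) and r of 0.72 without the 2 pools farthest from the median. Per1 and Bhlhe40 had r of 0.69 and Clock and Nfil3 0.72 (both adjusted permutation p = 0.138), and without the 2 farthest pools these were 0.67 and 0.26.

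Spread between pools was compared as the SD of CPS over that of LD, and for 0 of the 7 members did it differ past adjustment. The ratio was 0.561 for Bmal1, whose SD was 0.16 in LD and 0.09 in CPS, and 1.30 for Cry1, with the other 5 members between. The exact permutation p adjusted over 7 members was 0.813 at the lowest. Over genes at or above the median level the median ratio was 0.981, with quartiles of 0.701 and 1.37. Per1 and Per2 varied most between pools, with a pooled SD of 0.235 and 0.217 on the log2 scale, above the upper quartile of 0.209 over those genes. Dbp, at 0.061, and Cry1, at 0.076, lay below the lower quartile of 0.109.

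The genes whose deviations were most like those of a member, among 9407 at or above the median level, were as follows, as a description over 12 pools, in which every gene of a pool shares its array. For Bmal1 these were Hnrnph2, an RNA-binding protein gene (r of 0.91), and Ywhah, a 14-3-3 protein gene (0.89). For Clock they were Pigm, of glycosylphosphatidylinositol anchor synthesis (r of 0.95), and the proteasome subunit gene Psmd1 (0.90). Per1 was followed most closely by Zdhhc14, a palmitoyltransferase gene (r of 0.93), and Plvap, a gene of fenestrated endothelium (0.89). Per2 was closest to Inpp5d, a phosphatase gene of blood cells (r of 0.90), and Esrra, the estrogen-related receptor alpha gene (0.89). Cry1 was closest to the complement gene C1qb (r of 0.88), itself on the immune list, and to S1pr5 (0.87). Cry2 was closest to Atxn7l3b (r of 0.90) and the DNA repair gene Xrcc4 (0.86), and Dbp to Zscan12 (r of 0.95) and Rgma (0.90). No member was among the 2 closest genes of another.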

How the data were processed

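Fetal kidney RNA of 12 pools, 6 LD and 6 CPS, was hybridized to Affymetrix Rat Gene 2.1 ST arrays. The authors made log2 values by RMA (background correction, quantile normalization, probe summary) and deposited them. Expression Console (Affymetrix) is named in the submitters' processing notes, with its version not given there. Groups and replicate numbers follow the sample titles, and each pool is 1 replicate, read from the labels as 1 mother, although the methods' wording (a pool from 6 mothers) leaves this unsettled. Scans, detection calls, scan dates and RT-qPCR were not analysed here.

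Of 36685 clusters, 14824 carried 1 symbol, 829 several and 21032 are unnamed here. The cluster of highest mean was kept for each of 14557 genes. CPS was compared with LD by limma 3.58.1 (lmFit, eBayes, two-sided) in R 4.3.3 over all clusters, called at an unadjusted p under 0.05 as in the methods, with Benjamini-Hochberg beside it. Single genes were also tested by exact permutation over 924 relabelings (smallest p 0.00216). Pairs were tested on group-centred values with 100000 permutations within groups, and within 1 group over 720 orders (smallest p 0.00139). Python 3.11.15 with scipy 1.17.1 was used. Steps were tested on simulated data. Precision is limited by the number of arrays.

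The members, lists and tests were chosen with earlier results of these data known. Named genes are the members, family relatives, the 4 kidney genes timed by the study, for each list the genes called and up to 2 others of lowest p, and for each member the 2 genes of highest r. Timeless, from the list of further repressors, was added after its value was seen. Alternatives were the methods' one-way test, a filter at the median level, array weights, a trend of spread with intensity, liver and adrenal cortex covariates, each array left out, a replicate block, and arrays centred on their medians or quantile normalized again.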

Additional observations from a re-analysis of the deposited data

Results flagged for a closer look

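In groups of 6 pools, a value was singled out where its gap to the nearest pool exceeded the 95% limit of Dixon's test as a share of the group's range, which chance passes in about 1 of 20 groups. Of the 14 groups formed by the members, 2 held such a pool. Cry1 in LD replicate 6 was 7.15, while the other LD pools lay between 6.97 and 7.03, a gap of 0.644 of the range. Cry2 in CPS replicate 1 was 6.51, while the other CPS pools lay between 6.75 and 6.83, a gap of 0.757 of the range. No other value of LD replicate 6 or CPS replicate 1 among the members passed the limit.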

How the results depend on the processing

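The count of 0 called members held under every alternative run, and the difference between CPS and LD kept its sign for each member except Per1, whose value was -0.019 to 0.125 when 1 array was left out. The 1 called gene of the clock network was 2 with an intensity trend and robust spread or with array weights, where Bhlhe40 joined Gsk3b, 0 with median centring or with liver and adrenal cortex covariates, and 0 to 1 without 1 array. For Per2 and Dbp r stayed between 0.71 and 0.93, and the adjusted call was lost after a further quantile normalization (0.80), with the replicate block (0.82), with the array median as covariate (0.71), without the 2 arrays farthest from the median (0.86) and in 7 of 12 fits without 1 array (0.76 to 0.85, while r was 0.76 to 0.92 over all 12). The array median and the immune mean were covariates added after the data had been seen. Fewer arrays also leave less power, and the cause of other changes was not tested. Replicate numbers did not pair the pools (correlation of same-numbered deviations -0.064 to 0.046), and the replicate block gave 1984 called clusters against 1946 and 0 called members.

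Values of r whose sign turned belong to pairs that did not pass. They were, as rank correlation, Bmal1-Clock -0.24. With median centring they were Bmal1-Cry1 0.34, Clock-Per1 0.16, Clock-Cry1 0.23, Per2-Cry2 0.35, Cry1-Cry2 0.28, Cry2-Dbp 0.31. With the replicate block they were Bmal1-Clock -0.11, Bmal1-Per1 -0.12, Clock-Per2 -0.12, Clock-Dbp -0.42, Per1-Cry2 -0.32. With the liver and adrenal cortex covariates they were Clock-Per1 0.01, Clock-Cry1 0.10, Cry1-Cry2 0.48, Cry1-Dbp -0.21. With the array median as covariate they were Bmal1-Per1 -0.35, Per1-Per2 -0.12, Per1-Dbp -0.28, Per2-Cry1 -0.17, Cry1-Dbp -0.29, and with the immune mean Per2-Cry1 -0.16, Per2-Cry2 0.02, Cry1-Dbp -0.20. Without the 2 arrays farthest from the median they were Bmal1-Clock -0.40, Bmal1-Cry2 -0.02, Clock-Per1 0.10, Clock-Cry1 0.28, Per1-Dbp -0.16, Cry1-Cry2 0.49, Cry1-Dbp -0.60, Cry2-Dbp 0.22. Median centring brought Per1-Cry1 (0.93) and Bmal1-Dbp (0.80) past adjustment. Under that setting r was positive for every pair, from 0.16 for Clock-Per1 to 0.93, and higher than on the values as deposited. Centring subtracts the same array median from both genes of a pair, which adds a shared term. Its part in these values was not tested. Leaving out 1 array gave sign changes within the ranges Bmal1-Clock -0.21 to 0.23, Clock-Dbp -0.22 to 0.26, Bmal1-Per1 -0.03 to 0.35, Per1-Cry2 -0.10 to 0.36, Cry1-Dbp -0.36 to 0.26, Per2-Cry2 -0.22 to 0.16, Clock-Per1 -0.40 to 0.02, Clock-Cry1 -0.46 to 0.14, Cry1-Cry2 -0.39 to 0.17, Cry2-Dbp -0.51 to 0.11, Per2-Cry1 -0.10 to 0.41. For the difference of r between CPS and LD, median centring gave Per1-Cry1 -0.08 and Per1-Dbp 0.02, and leaving out 1 array gave Bmal1-Per2 -0.68 to 0.31, Bmal1-Dbp -0.37 to 0.51, Clock-Per2 -0.75 to 0.46, Clock-Dbp -1.01 to 0.73, Per1-Per2 -0.00 to 0.88, Per2-Dbp -0.22 to 0.11, Cry1-Dbp -0.77 to 0.68, Bmal1-Cry1 -0.54 to 0.03, Per1-Dbp -0.58 to 0.45, Clock-Per1 -0.03 to 0.86, Per1-Cry2 -0.29 to 1.13, Cry1-Cry2 -0.36 to 0.99, Bmal1-Cry2 -0.94 to 0.60, Cry2-Dbp -1.13 to 0.12, Bmal1-Per1 -1.16 to 0.03, Per1-Cry1 -0.09 to 0.37. For the log2 ratio of SDs, Per2 was 0.06 with median centring and 0.03 after quantile normalization, and leaving out 1 array gave Dbp -0.16 to 1.41, Clock -0.74 to 0.65, Per2 -0.18 to 0.68, Cry2 -2.22 to 0.08, Cry1 -0.11 to 1.56. No difference of r or of spread passed adjustment in these settings. The mean of several clusters could not be tried, as each member has 1.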

Other observations

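The difference between Bmal1 and Per2 within a pool, which cancels any shift shared by both genes, was given as a description with no test. It was 0.85 ± 0.19 in LD and 0.61 ± 0.21 in CPS on the log2 scale (SD, n = 6 each), with 0.59 to 1.13 in LD and 0.30 to 0.86 in CPS. The ranges overlapped. As the probes of each gene have their own response, the size of the difference says nothing of which gene is higher.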
